A study of Mus musculus with 18 samples.

Results

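In mice given human chorionic gonadotropin (hCG), cumulus cells and mural granulosa cells were compared at 12 h, a time when follicles are close to ovulation. The comparison used 6 of the 18 libraries of the series, 3 of cumulus cells and 3 of mural cells, chosen by their titles and column names. Both groups came from ovaries of mice labelled wild type (WT) and treated with hCG for 12 h, and differed only in the cell compartment named in the title. The rest of the series holds the same cell types at 0 and 4 h, also with 3 libraries per group, and polyadenylated RNA was sequenced throughout. The labels give no age, strain or number of animals for these groups. No label says whether the libraries of a group came from different mice, and the spread that the p-values rest on may therefore be technical.

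Mural granulosa cells form the inner lining of the follicle, and cumulus cells surround the oocyte and leave the follicle with it. The hormone surge, for which hCG stands in, acts on the luteinizing hormone receptor of mural cells, which release EGF-like peptides that pass the signal on to the cumulus. Cumulus cells then lay down a hyaluronan-rich matrix that expands the mass around the oocyte, while mural cells begin to turn into the progesterone-producing cells of the corpus luteum.

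The cumulus libraries held 37.3, 36.9 and 41.3 M counts and the mural libraries 35.1, 38.3 and 40.1 M counts. Levels are given as CPM, counts relative to the library's total, with edgeR's TMM scaling, and are not corrected for gene length. Of 41325 table entries, 17064 passed the filter on low counts, and all genes counted below are among these. A log2 difference is cumulus minus mural, with its standard error (SE), and a gene is called where its p, from the quasi-likelihood test of edgeR after Benjamini-Hochberg adjustment, is under 0.05. Gene lists overlap in a few members. Libraries of each group differed from one another by more than counting error, with the lowest chi-square per degree of freedom at 8.35, and none was counted as a copy of another.

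The cell-type characteristic contradicted the titles, since 2 of the 3 cumulus libraries carried the mural cell type there, as all 3 mural libraries did, and 1 carried none. The receptor of luteinizing hormone, Lhcgr, is the textbook marker of the mural compartment (chromosome 17, 88716481 to 88791990, GRCm38). It stood at 4.87, 3.7 and 3.49 CPM in cumulus libraries, against 504, 573 and 586 CPM in mural libraries. Those groups did not overlap, and the log2 difference was -7.11 ± 0.11 (adjusted p = 1.22e-15). The side-chain cleavage enzyme Cyp11a1 was also lower in every library titled cumulus, with a log2 difference of -3.65 ± 0.09.

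Markers of other cells of the ovary were summed per library. The 15 oocyte markers summed to 8.68, 10.9 and 6.93 CPM in the cumulus libraries and to 331, 138 and 231 CPM in the mural libraries, so the cells named for surrounding the oocyte carried less oocyte RNA than the mural cells. Zp1, which encodes an egg-coat protein, and Figla, an oocyte transcription factor, had no counts in any cumulus library. Stromal and smooth muscle markers summed to 32.3, 29.6 and 32.7 CPM in cumulus libraries, against 447, 411 and 606 CPM in mural libraries. Red cell and platelet markers summed to 117, 25.8 and 50.1 CPM in cumulus libraries and 396, 751 and 576 CPM in mural libraries. Globin genes, which come in near-identical pairs, made up most of it, and the call of Hbb-bs was lost without cumulus replicate 3 (adjusted p = 0.0769) and without mural replicate 2 or 3 (0.0573 and 0.0593). With the replicate number as a block, the calls of Hba-a1, Hbb-bs and Hbb-bt were lost (adjusted p = 0.092, 0.103 and 0.0828). Ovarian surface epithelium markers summed to 4.49, 4.87 and 5.74 CPM in cumulus libraries and 44.4, 45.8 and 53.8 CPM in mural libraries. Macrophage markers averaged 15.05 ± 1.47 CPM in cumulus cells and 35.3 ± 3.44 CPM in mural cells (SD, n = 3 each). All of these groups of libraries were apart, with an exact two-sided permutation p of 0.10, the smallest that 3 against 3 libraries allow. Sums of endothelial, neutrophil and oviduct markers overlapped between the groups (exact permutation p = 0.20, 1.0 and 0.50). Theca and interstitial markers summed to 1951 ± 95.9 CPM in cumulus cells and 3548 ± 248 CPM in mural cells (SD, n = 3 each, exact permutation p = 0.10), most of it from Akr1cl and Star. Of 9 tested, 2 were called cumulus-higher and 6 mural-higher. The cumulus-higher ones were Ptch1, at 108 ± 3.86 CPM in cumulus cells and 85.8 ± 8.29 CPM in mural cells, and Nr2f2, at 51.9 ± 3.87 CPM in cumulus cells and 36.2 ± 1.18 CPM in mural cells. Cyp17a1, the androgen-making enzyme of theca cells, averaged 0.0705 ± 0.122 CPM in cumulus cells and 4.79 ± 1.96 CPM in mural cells, and Tcf21 had no counts in cumulus cells. Granulosa lineage markers summed to 8579 ± 518 CPM in cumulus cells and 11100 ± 285 CPM in mural cells (SD, n = 3 each). Of 12 tested, 3 were called cumulus-higher and 6 mural-higher, so the sum does not speak for all members. Cyp11a1 averaged 356.1 CPM in cumulus cells and 4484 CPM in mural cells. Serpine2 went the other way, with 3297 CPM in cumulus cells and 1080 CPM in mural cells. In bulk libraries, fewer cells of a type and less RNA per cell cannot be told apart.

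**Figure D1:**
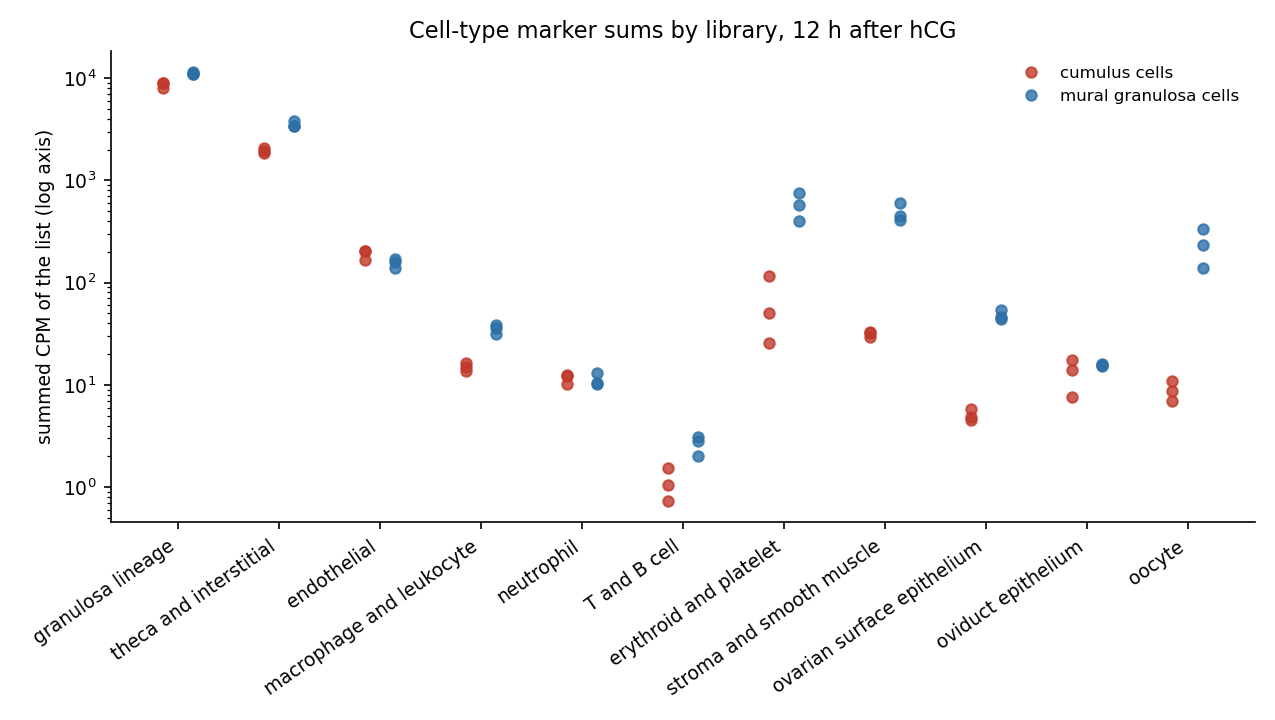
Summed CPM (log axis) of the genes of 11 cell-type marker lists in each of the 3 cumulus (left of each pair) and 3 mural libraries (right), one point per library. Oocyte markers lay between 6.93 and 10.9 CPM in cumulus libraries and between 138 and 331 CPM in mural libraries, while the sums for neutrophils and oviduct epithelium overlapped.

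Of the 17064 genes tested, 10490 were called (61.5%), 5196 of them higher in cumulus cells (30.5%) and 5294 higher in mural cells (31.0%). The shares of 30.5% and 31.0% are the background for all counts of list members called at 12 h in this report. The 2 directions differed in size. Among called genes at least 2-fold apart, 971 were higher in cumulus cells (5.69%) and 2889 were higher in mural cells (16.9%), and at least 8-fold differences were found for 94 cumulus-higher and 883 mural-higher genes. Of the 883, 192 had at most 3 counts over the cumulus libraries, so their exact folds cannot be read. The median log2 difference was 0.49 over the cumulus-higher genes, -1.15 over the mural-higher genes and -0.02 over all genes tested. With a minimum count of 50, 5027 of the calls were cumulus-higher and 4212 mural-higher, and 2589 called genes were at least 2-fold apart. Scaled by library totals without the TMM factor, the median over all genes was -0.13 and the share of cumulus-higher genes among the calls was 39.4%, against 49.5% with TMM. More genes were detected in the mural libraries, with 13240 ± 39 genes at or above 1 CPM in cumulus cells and 14280 ± 163 in mural cells (SD, n = 3 each, exact permutation p = 0.10).

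**Figure D2:**
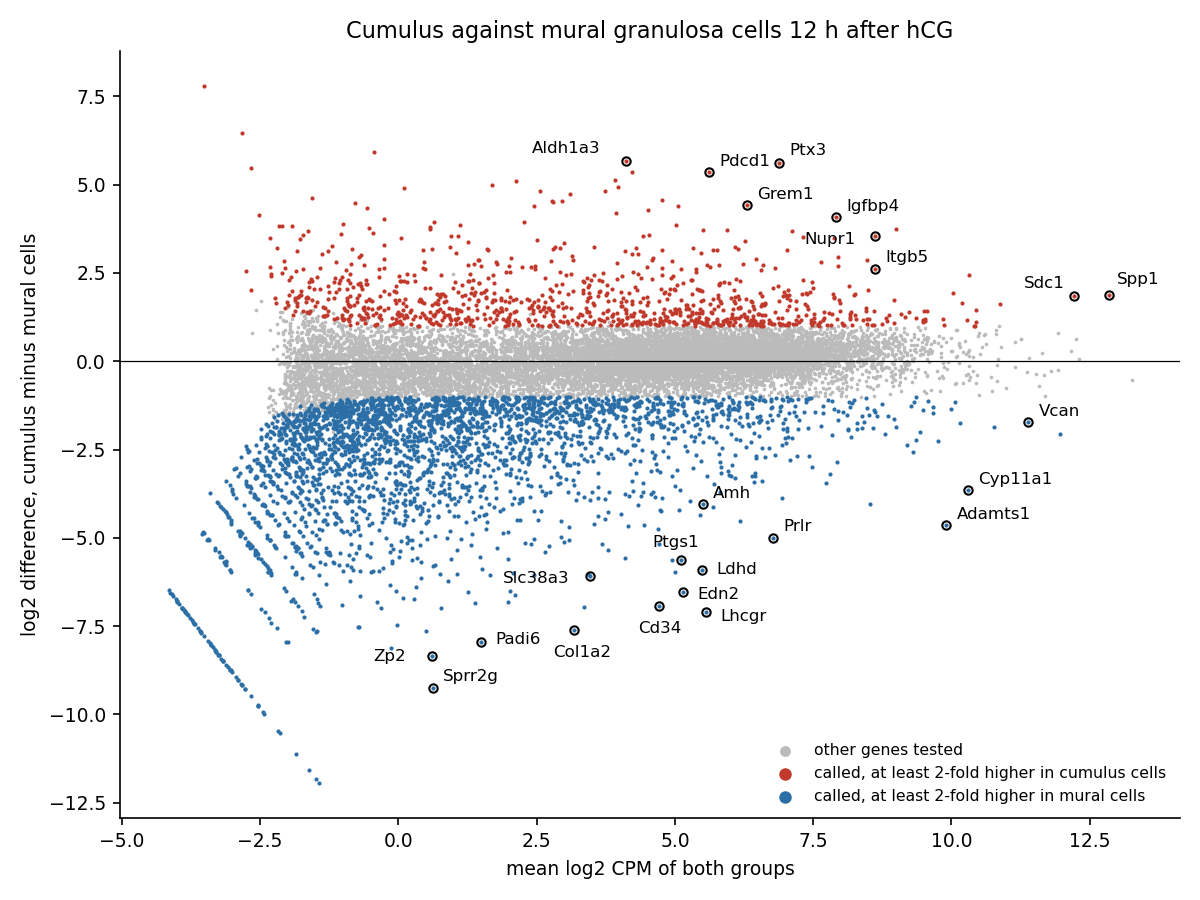
Log2 difference between cumulus and mural cells against the mean log2 CPM of both groups for each gene tested, with genes called and at least 2-fold apart in colour. Large differences are more often mural-higher (2889 genes) than cumulus-higher (971 genes), and the diagonal lines at the lower left are genes with few or no counts in cumulus cells.

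The largest cumulus excess at 20 CPM or more belonged to Aldh1a3, an enzyme that makes retinoic acid. It stood at 149.7, 103 and 117 CPM in cumulus libraries, against 2.29, 2.45 and 2.49 CPM in mural libraries (log2 difference 5.67 ± 0.16, adjusted p = 1.54e-09). Pdcd1, better known as the inhibitory receptor PD-1 of T cells (chromosome 1, 94038305 to 94052553), stood at 291, 335 and 315 CPM in cumulus libraries, against 8.89, 6.72 and 7.39 CPM in mural libraries. Its groups were far apart, with a log2 difference of 5.36 ± 0.10 (adjusted p = 1.61e-15), while the T and B cell markers together reached 1.11 ± 0.40 CPM in cumulus cells and 2.64 ± 0.58 CPM in mural cells. Cd52, a small lipid-anchored surface protein of lymphocytes, was likewise higher, at 31.4 ± 0.919 CPM in cumulus cells and 1.11 ± 0.238 CPM in mural cells. The next genes were the keratins Krt23 (5.35) and Krt79 (4.93), the monooxygenase Cyp4b1 (5.12), the organic anion transporter Slc22a22 (5.11), the focal adhesion protein Tns4 (4.82) and the heparin-binding growth factor Ptn (4.73), all as log2 differences. Lack of overlap between the groups was a condition for choosing these genes, and it held for 67.4% of all genes tested.

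By excess in counts, the cumulus cells were marked by Spp1, which encodes the secreted integrin ligand osteopontin. It read 14405, 14444 and 13694 CPM in cumulus libraries, against 3475, 3848 and 4196 CPM in mural libraries, with a log2 difference of 1.88 ± 0.09 (adjusted p = 1.46e-11), and took 1.3 ± 0.04% of all counts in cumulus cells and 0.378 ± 0.036% in mural cells. Sdc1, the cell-surface proteoglycan syndecan-1, followed at 9047 ± 255 CPM in cumulus cells and 2510.4 ± 119 CPM in mural cells (log2 difference 1.85 ± 0.08). The ferritin heavy chain Fth1, which stores iron, averaged 2945 ± 219 CPM in cumulus cells, against 546 ± 19.3 CPM in mural cells, and the protease inhibitor Serpine2 averaged 3297 ± 153 CPM in cumulus cells, against 1080.5 ± 81.2 CPM in mural cells. In the other direction, the largest excess was in Psap, the precursor of lysosomal activator proteins, with 1950.0 ± 155 CPM in cumulus cells and 8075 ± 646 CPM in mural cells.

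The greatest mural excess among genes at 20 CPM or more was in Sprr2g, a small proline-rich protein of epithelia, at 0, 0.0587 and 0.106 CPM in cumulus libraries, against 34.7, 42.3 and 32 CPM in mural libraries. Near-identical relatives may share its reads, and its relative Sprr2f had no counts in cumulus cells and was at least 59.3-fold lower there, against a floor of 3 counts over the group. The egg-coat gene Zp2 averaged 0.0785 ± 0.0679 CPM in cumulus cells and 25.9 ± 8.97 CPM in mural cells, and the oocyte genes Padi6 and Nlrp14 were mural-higher too. Zp2 and Padi6 are members of the oocyte marker sum given above, which was itself mural-higher, and Nlrp14 is not. The fibrillar collagen Col1a2, outside the stromal list, averaged 0.626 ± 0.686 CPM in cumulus cells and 128 ± 31.6 CPM in mural cells. The stromal sum was mural-higher as well. The part of oocyte and stromal RNA in these differences was not tested. Another mural-higher gene of that rank was Ildr2, with 0.429 ± 0.197 CPM in cumulus cells and 42.7 ± 10.3 CPM in mural cells.

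The expansion matrix was divided. Of 16 tested members of its list, 7 were called higher in cumulus cells and 8 higher in mural cells, with a median log2 difference of -0.55, beside shares of 30.5% and 31.0% among all genes. Ptx3, which ties hyaluronan chains into a stable matrix (chromosome 3, 66219910 to 66225805), stood at 969, 671 and 817 CPM in cumulus libraries, against 26.9, 10.7 and 13.1 CPM in mural libraries. The log2 difference was 5.60 ± 0.46 (adjusted p = 0.000532), with the lowest cumulus library far above the highest mural one. Tnfaip6, which moves protein chains onto hyaluronan, read 1077, 830.2 and 978 CPM in cumulus libraries, against 147, 127 and 124 CPM in mural libraries (log2 difference 2.86 ± 0.10). Has2, the synthase that makes the hyaluronan chain, read 67.3, 54.3 and 56.8 CPM in cumulus libraries, against 9.32, 4.83 and 5.2 CPM in mural libraries and had a log2 difference of 3.21 ± 0.26 (adjusted p = 0.000115). The matrix glycoprotein Tnc (2.96), the collagen-binding protein Tgfbi (2.93) and the hyaluronan receptor Cd44 (0.74) were higher in cumulus cells too. Vcan, the large hyaluronan-binding proteoglycan versican, went the other way, at 1461, 1634 and 1305 CPM in cumulus libraries, against 4209, 5170.2 and 5225 CPM in mural libraries (log2 difference -1.73 ± 0.10, adjusted p = 1.08e-09). The basement-membrane proteoglycan Hspg2 (-1.26) and fibronectin, Fn1 (-0.76), were also lower in cumulus cells, as were the small proteoglycans Bgn (-2.15) and Dcn (-3.47), of which Dcn is a stromal marker.

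The list of hyaluronan and versican breakdown, which also holds the receptor Lyve1, leaned to the mural side. Of 10 tested members, 1 was higher in cumulus cells and 8 were higher in mural cells, with a median of -2.42. The shares over all genes tested were 30.5% and 31.0%. Adamts1, a protease that cleaves versican, stood at 225, 181 and 171 CPM in cumulus libraries, against 4454, 5015 and 4866 CPM in mural libraries. Its groups were far apart, with a log2 difference of -4.63 ± 0.11 (adjusted p = 1.89e-14). Cemip, which promotes hyaluronan breakdown, averaged 32.3 ± 1.5 CPM in cumulus cells and 469 ± 32.6 CPM in mural cells, and the protease Adamts5 averaged 4.81 ± 1.17 CPM in cumulus cells and 68 ± 10.7 CPM in mural cells. Adamts4 had a smaller gap (-1.98 ± 0.12). Lyve1, a hyaluronan receptor of lymphatic vessels and macrophages, read 0.177, 0.147 and 0.397 CPM in cumulus libraries, against 22.1, 28.9 and 17.4 CPM in mural libraries. Only the hyaluronidase Hyal2 was called higher in cumulus cells, by 0.37 ± 0.07, and Hyal1, its relative, was not called and its groups overlapped.

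The EGF-like ligands, which carry the ovulatory signal between the compartments, differed in both directions. Btc, Areg and Ereg were cumulus-higher, and Hbegf and Nrg1 were mural-higher. Btc read 297, 237 and 235 CPM in cumulus libraries, against 72.6, 67.9 and 68.2 CPM in mural libraries (log2 difference 1.88 ± 0.09, adjusted p = 6.53e-10). Areg read 41.4, 26.4 and 32 CPM in cumulus libraries, against 14.7, 17 and 14.7 CPM in mural libraries and differed by 1.10 ± 0.15 (adjusted p = 7.41e-05). Ereg read 428, 231 and 265 CPM in cumulus libraries, against 134, 151 and 124 CPM in mural libraries and differed by 1.17 ± 0.28 (adjusted p = 0.02). The Ereg call was lost without any 1 of the mural libraries, with adjusted p of 0.0775, 0.059 and 0.0711 when replicates 1, 2 and 3 were left out. Hbegf had the largest difference of the list, at 0.443, 0.147 and 0.265 CPM in cumulus libraries, against 3.18, 3.29 and 3.19 CPM in mural libraries (log2 difference -3.49 ± 0.35, adjusted p = 1.9e-07). Nrg1, a ligand of the ErbB receptors, averaged 0.684 ± 0.147 CPM in cumulus cells and 1.39 ± 0.0834 CPM in mural cells (log2 difference -1.01 ± 0.34, adjusted p = 0.0159), and its call was lost without mural replicate 3 (adjusted p = 0.0558) and in the fit of all 18 libraries (0.134). Egfr, the receptor of these ligands, was not called, at 120.4, 115 and 124 CPM in cumulus libraries and 104, 110.2 and 118 CPM in mural libraries (log2 difference 0.12 ± 0.06), though it was without mural replicate 3 (adjusted p = 0.0442). Its partner receptors Erbb2 and Erbb3 were cumulus-higher, by 0.36 ± 0.07 and 0.80 ± 0.15. Among 15 tested genes of the list, 8 were higher in cumulus cells and 4 in mural cells, beside 30.5% and 31.0% of all genes tested.

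Feedback genes of the ERK pathway, which these receptors drive, split nearly evenly, with 5 of 13 higher in cumulus cells and 6 in mural cells. Those shares were 38.5% and 46.2%, beside 30.5% and 31.0% of all genes tested. The ERK phosphatases Dusp4 and Dusp6 and the inhibitor Spry2 were cumulus-higher. Dusp4 averaged 159.6 ± 9.87 CPM in cumulus cells and 32.7 ± 6.23 CPM in mural cells, and Dusp6 averaged 177 ± 18.6 CPM in cumulus cells and 75.7 ± 8.45 CPM in mural cells. The phosphatase Dusp2 averaged 0.199 ± 0.118 CPM in cumulus cells and 6.79 ± 1.22 CPM in mural cells, and Spry1, an inhibitor related to Spry2, had 3 counts over the cumulus libraries, all in replicate 2, a ratio of mural to cumulus of 79.2 with a 95% interval of 26.8 to 387 from counting alone. Of the immediate early transcription factors, which respond to such signals within minutes, 10 of 20 were higher in cumulus cells and 3 in mural cells, with a median of 0.66. Egr2 read 61.6, 66.4 and 67.5 CPM in cumulus libraries, against 9.92, 8.58 and 8.15 CPM in mural libraries, and Egr3 read 282, 212 and 233 CPM in cumulus libraries, against 52.3, 61.2 and 52.6 CPM in mural libraries. Egr1 and Fos were not called, at 0.58 ± 0.21 and 0.33 ± 0.36, but Egr1 was called with DESeq2 (adjusted p = 0.0274) and without mural replicate 2 (0.0377) or cumulus replicate 2 (0.011), and Fos without mural replicate 2 (0.000235). Myc was lower in cumulus cells (-1.73 ± 0.08).

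Called prostaglandin genes ran in both directions, 5 of 18 tested members higher in cumulus cells and 7 in mural cells (median -0.17). These shares, 27.8% and 38.9%, were close to the 30.5% and 31.0% of all genes tested. Pla2g4a frees arachidonic acid from membranes and stood at 539, 541 and 512 CPM in cumulus libraries, against 71.3, 77.1 and 79.4 CPM in mural libraries (log2 difference 2.80 ± 0.06, adjusted p = 1.32e-15). Ptgs2, the inducible cyclooxygenase, stood at 1475, 1049.9 and 1195 CPM in cumulus libraries, against 458, 479 and 452 CPM in mural libraries (log2 difference 1.42 ± 0.10). Its constitutive relative Ptgs1 had the opposite pattern, at 4.43, 4.81 and 5.56 CPM in cumulus libraries, against 223, 258 and 249.8 CPM in mural libraries (log2 difference -5.62 ± 0.09, adjusted p = 5.11e-17). Ptges, the terminal synthase of prostaglandin E2, was not called, with 67.8 ± 4.6 CPM in cumulus cells and 73 ± 11.6 CPM in mural cells, though it was without mural replicate 2 (adjusted p = 0.0179). The prostaglandin E2 receptors Ptger2 and Ptger4 were higher in cumulus cells, by 2.54 ± 0.16 and 0.95 ± 0.10. Among the mural-higher members, the uptake carrier Slco2a1 averaged 73.7 ± 0.592 CPM in cumulus cells and 674 ± 52.7 CPM in mural cells, the prostaglandin F receptor Ptgfr 3.14 ± 1.17 CPM in cumulus cells and 61.1 ± 8.95 CPM in mural cells, and Hpgd, which inactivates prostaglandins, 5.39 ± 0.36 CPM in cumulus cells and 18.3 ± 3.03 CPM in mural cells.

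**Figure D3:**
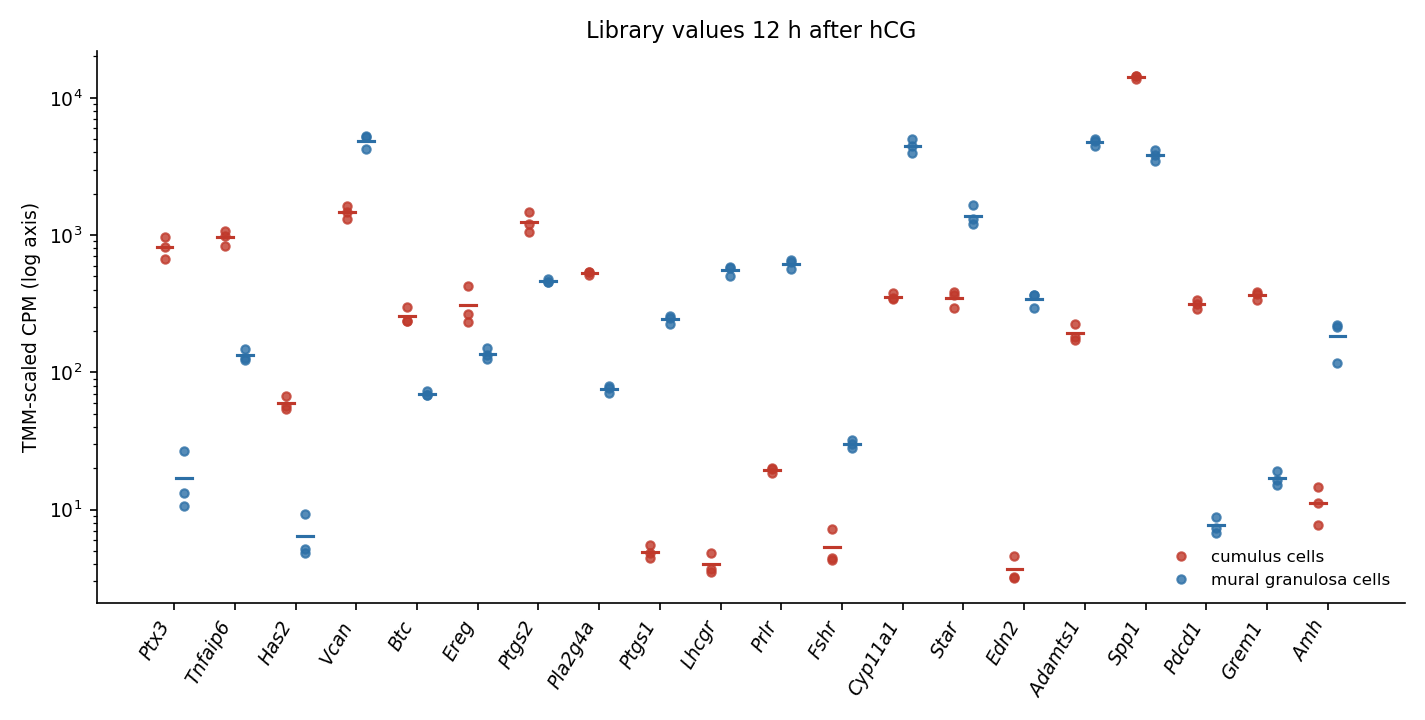
TMM-scaled CPM (log axis) of 20 genes in each of the 3 cumulus (left of each pair) and 3 mural libraries (right), with bars at the group means. Matrix, EGF-like and prostaglandin genes such as Ptx3, Btc and Pla2g4a lay higher in cumulus cells, and Ptgs1, Lhcgr, Prlr, Cyp11a1, Edn2 and Adamts1 lay higher in mural cells, with no overlap between the groups for these genes.

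Hormone receptors were mostly mural-higher, with 3 of 11 members called higher in cumulus cells and 7 in mural cells. The shares over all genes tested were 30.5% and 31.0%. Besides Lhcgr, the prolactin receptor Prlr, which sustains the corpus luteum in rodents, stood at 19.7, 20.1 and 18.4 CPM in cumulus libraries, against 566, 654 and 634 CPM in mural libraries (log2 difference -5.0 ± 0.08, adjusted p = 2.28e-17). The follicle-stimulating hormone receptor Fshr was low in both, at 4.28, 4.43 and 7.27 CPM in cumulus libraries, against 30.2, 28.1 and 32 CPM in mural libraries (log2 difference -2.49 ± 0.17). Pgr, the progesterone receptor that mural cells need to ovulate, was at 1.12, 0.675 and 0.714 CPM in cumulus libraries, against 7.17, 2.4 and 4.05 CPM in mural libraries (log2 difference -2.44 ± 0.39). Among the cumulus-higher members was Adcyap1r1, the receptor of the peptide PACAP, with 33.7 ± 2.89 CPM in cumulus cells and 10.3 ± 2.24 CPM in mural cells (log2 difference 1.71 ± 0.14).

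Progesterone synthesis genes were called higher in cumulus cells for 5 of 17 members and higher in mural cells for 9, with a median of -0.38. These shares were 29.4% and 52.9%, beside 30.5% and 31.0% of all genes tested, so the cumulus-higher share was that of all genes. Cyp11a1, which makes pregnenolone from cholesterol, read 350.1, 341 and 378 CPM in cumulus libraries, against 3989.7, 5036 and 4425 CPM in mural libraries (adjusted p = 5.05e-15). Star, which brings cholesterol into mitochondria, read 383, 293 and 368 CPM in cumulus libraries, against 1308, 1653 and 1202 CPM in mural libraries (log2 difference -2.0 ± 0.14, adjusted p = 4.58e-06). Hsd3b1, the enzyme of the next step, differed less, at 853, 826 and 954 CPM in cumulus libraries, against 1354, 1360.0 and 1322 CPM in mural libraries (log2 difference -0.62 ± 0.07), and may share reads with its close relative Hsd3b6. The electron carrier Fdx1 (-0.76), the lipoprotein receptor Scarb1 (-0.38) and the cholesterol-binding Stard5 (-3.71) were mural-higher as well. The nuclear receptors that drive these genes went apart, with Nr5a1 at 269, 286 and 277 CPM in cumulus libraries, against 143, 142 and 143 CPM in mural libraries and Nr5a2 at 245, 269 and 257 CPM in cumulus libraries, against 1449, 1607 and 1555 CPM in mural libraries. Tspo, an outer mitochondrial membrane protein tied to cholesterol import, was cumulus-higher (1.63 ± 0.07). Cholesterol synthesis and uptake leaned slightly to cumulus cells, with 12 of 24 members higher there, 7 in mural cells and a median of 0.15. Dhcr7, which completes cholesterol, was the furthest down (-1.55 ± 0.07).

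Genes of estrogen synthesis and the follicular phase were mural-higher for 7 of 13 members and cumulus-higher for 4. The shares, 53.8% and 30.8%, stood beside 31.0% and 30.5% of all genes tested. Aromatase, Cyp19a1, which makes estradiol, stood at 5.55, 7.07 and 7.22 CPM in cumulus libraries, against 59.8, 32 and 58.7 CPM in mural libraries (log2 difference -2.92 ± 0.31). The separate list of inhibin, activin and AMH genes was balanced, with 5 of 14 members cumulus-higher, 5 mural-higher and a median of 0.05. The anti-Müllerian hormone gene Amh stood at 14.6, 11.3 and 7.7 CPM in cumulus libraries, against 219.9, 117 and 213 CPM in mural libraries (log2 difference -4.04 ± 0.41, adjusted p = 0.00114), and its receptor Amhr2 differed by -1.57 ± 0.09. The inhibin alpha chain Inha was not called and its groups overlapped, at 1948, 1618 and 2038 CPM in cumulus libraries and 1947, 1470.4 and 1964 CPM in mural libraries. The activin beta A chain Inhba was called at 0.93 ± 0.27 (adjusted p = 0.0359), but not when scaled by library totals (adjusted p = 0.0599), without the filter on low counts (0.0805) or without mural replicate 3 (0.0978), cumulus replicate 1 (0.0892) or cumulus replicate 3 (0.0853). The beta B chain Inhbb read 112, 98.1 and 122 CPM in cumulus libraries, against 533, 298 and 579 CPM in mural libraries, a log2 difference of -2.09 ± 0.31. Follistatin, Fst, which traps activin, was cumulus-higher (1.42 ± 0.07).

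Antagonists and ligands of the BMP family differed in both directions. Grem1, a secreted BMP antagonist that cumulus cells make in response to the oocyte, read 370.3, 386 and 336 CPM in cumulus libraries, against 19.1, 15.2 and 16.6 CPM in mural libraries (log2 difference 4.42 ± 0.09, adjusted p = 1.84e-15). The ligand Bmp6 averaged 242 ± 8.07 CPM in cumulus cells and 32.3 ± 7.13 CPM in mural cells, and the ligand Bmp2 averaged 0.738 ± 0.339 CPM in cumulus cells and 20.9 ± 3.94 CPM in mural cells. Id2, a target gene of BMP signals, was lower in cumulus cells, at 63.3, 58.2 and 70.8 CPM in cumulus libraries, against 651, 775 and 682 CPM in mural libraries (log2 difference -3.45 ± 0.09), and Id1 less so (-0.42 ± 0.10). The receptor Bmpr2 differed by -0.25 ± 0.06. Over the list, 7 of 23 members were higher in cumulus cells and 8 in mural cells, close to the shares over all genes.

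Transcription factors on the granulosa identity list were mural-higher for 14 of 17 members and cumulus-higher for 2, with a median of -0.88. The shares over all genes tested were 31.0% and 30.5%. The cumulus-higher members were Nr5a1, at 277.4 CPM in cumulus cells and 142.9 CPM in mural cells, and Nr2f2. Nr2f2 is also on the theca and interstitial list given above. Foxl2, which keeps granulosa cells from male fate, stood at 48.6, 60.6 and 54.8 CPM in cumulus libraries, against 124, 119 and 123 CPM in mural libraries (log2 difference -1.16 ± 0.07). Wt1, a factor of the early gonad, stood at 0.649, 1.11 and 1.06 CPM in cumulus libraries, against 35.5, 24.5 and 33.8 CPM in mural libraries (log2 difference -5.04 ± 0.20). Nr0b1, a repressor of steroid genes, had 0.0393 ± 0.0682 CPM in cumulus cells and 2.77 ± 0.558 CPM in mural cells. Gata4, Gata6 and Foxo1 differed by less, at -0.50, -0.43 and -0.43. Runx1 was not called and its groups overlapped, with 661 ± 54.6 CPM in cumulus cells and 615 ± 51.1 CPM in mural cells.

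Regulators of follicle rupture were mural-higher for 12 of 19 members and cumulus-higher for 5, beside 31.0% and 30.5% of all genes tested. Edn2, the endothelin that contracts the follicle wall, read 4.6, 3.26 and 3.17 CPM in cumulus libraries, against 364, 366 and 294 CPM in mural libraries (log2 difference -6.54 ± 0.15, adjusted p = 2.14e-10). Zbtb16, a zinc-finger factor induced by progesterone, read 1.21, 2.02 and 0.767 CPM in cumulus libraries, against 80.1, 99.7 and 83 CPM in mural libraries (log2 difference -6.05 ± 0.24). The interleukin gene Il6 was low in both and lower in cumulus cells (4.18 ± 0.603 CPM in cumulus cells and 13.7 ± 0.397 CPM in mural cells), and the vesicle-fusion protein Snap25 differed by -1.34 ± 0.08. Cebpb, a factor that ERK signals need in granulosa cells, was cumulus-higher, at 543 ± 58.8 CPM in cumulus cells and 312 ± 20.6 CPM in mural cells (log2 difference 0.80 ± 0.08).

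The oxygen-sensing transcription factors Hif1a and Epas1 were opposed. Hif1a stood at 2548, 2055 and 2351 CPM in cumulus libraries, against 833, 879.6 and 807 CPM in mural libraries (log2 difference 1.46 ± 0.08), and Epas1, which encodes its relative HIF-2 alpha, stood at 27.7, 29.3 and 21.3 CPM in cumulus libraries, against 289.5, 301 and 254 CPM in mural libraries (log2 difference -3.43 ± 0.12). The vascular peptides Adm and Apln were mural-higher, with log2 differences of -3.57 ± 0.12 and -3.70 ± 0.12, and the chemokine receptor Cxcr4 averaged 12.4 ± 1.27 CPM in cumulus cells and 215 ± 15.8 CPM in mural cells. Vegfc, a growth factor of lymphatic vessels, was cumulus-higher (1.5 ± 0.13). Of 10 endothelial markers, 7 were mural-higher and 1 cumulus-higher. The cumulus-higher one was Cdh5, at 163.8 CPM in cumulus cells and 128.3 CPM in mural cells. It made up most of the endothelial sum, which was 190.4 CPM in cumulus cells and 156.1 CPM in mural cells. Kdr was not called, at 20.6 CPM in cumulus cells and 9.47 CPM in mural cells. Among the mural-higher ones, Pecam1 averaged 2.78 ± 1.03 CPM in cumulus cells and 5.79 ± 1.06 CPM in mural cells, and Cldn5 had no counts in cumulus cells. Glycolysis genes leaned to the cumulus, with 14 of 23 higher there, 6 higher in mural cells and a median of 0.50. Pkm, which makes the pyruvate that oocytes take up, averaged 2612 ± 39.2 CPM in cumulus cells and 1307 ± 66.4 CPM in mural cells, and the glucose carrier Slc2a1 averaged 419.7 ± 38.1 CPM in cumulus cells and 207 ± 6.42 CPM in mural cells. Against that, Ldhd, which oxidises D-lactate, was at 5.4, 7.39 and 4.63 CPM in cumulus libraries, against 327, 369.9 and 344 CPM in mural libraries (log2 difference -5.91 ± 0.14), and Pfkfb3, a regulator of glycolysis, was lower in cumulus cells (-1.66 ± 0.07).

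The list of Kit ligand and oocyte-facing signals was mural-higher for 7 of 14 members and cumulus-higher for 2, beside 31.0% and 30.5% of all genes. Kit ligand, Kitl, read 19.6, 15.7 and 17.9 CPM in cumulus libraries, against 56.6, 45.7 and 50.6 CPM in mural libraries (log2 difference -1.52 ± 0.10). In the separate list of natriuretic peptide and cyclic GMP genes, 1 of 11 tested members was cumulus-higher and 7 were mural-higher. Nppc, the peptide that holds the oocyte in meiotic arrest, was low in both, at 0.295, 0.352 and 0.37 CPM in cumulus libraries, against 6.85, 3.18 and 6.46 CPM in mural libraries, and its receptor Npr2 averaged 109.5 ± 2.98 CPM in cumulus cells and 159.9 ± 26.1 CPM in mural cells (log2 difference -0.55 ± 0.10). Pde5a, which breaks down cyclic GMP, was cumulus-higher (1.87 ± 0.09), and the cyclic GMP kinase Prkg2 was mural-higher (-2.68 ± 0.09). Slc38a3, from the list of amino acid transporters, is a glutamine and alanine carrier that oocytes induce in cumulus cells. It read 1.03, 1.38 and 1.59 CPM in cumulus libraries, against 116, 64.3 and 94.6 CPM in mural libraries (log2 difference -6.09 ± 0.35, adjusted p = 4.23e-05). Its relative Slc38a5 differed by -0.95 ± 0.21. The gap-junction protein Gja1, which couples granulosa cells, had overlap-free groups but was not called (0.21 ± 0.10), though it was with DESeq2 (adjusted p = 0.0406), without the low-count filter (0.00193), with the replicate number as a block (0.0421) and without mural replicate 1 (0.0328). The binding proteins of insulin-like growth factors were opposed, with Igfbp4 at 989.9 ± 79.8 CPM in cumulus cells and 58.7 ± 6.98 CPM in mural cells and Igfbp5 at 4.94 ± 0.239 CPM in cumulus cells and 134 ± 3.73 CPM in mural cells.

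Genes that detoxify peroxides and make glutathione were near balance, with 11 of 26 higher in cumulus cells and 9 in mural cells. Those shares, 42.3% and 34.6%, stood beside 30.5% and 31.0% of all genes tested. Thioredoxin, Txn1, a small reducing protein, averaged 572 ± 46.6 CPM in cumulus cells and 215 ± 16.7 CPM in mural cells, and glutathione reductase, Gsr, averaged 505 ± 33.1 CPM in cumulus cells and 259 ± 20.7 CPM in mural cells. The glutathione transferases Gstm1 and Gstm2, close relatives that may share reads, were lower in cumulus cells (-3.24 ± 0.08 and -2.72 ± 0.07). Amino acid transporters other than Slc38a3 differed by less than that gene. The leucine carriers went apart, with Slc7a8 at 1867 ± 55.7 CPM in cumulus cells and 1325 ± 64.9 CPM in mural cells and Slc7a5 at 79.2 ± 6.85 CPM in cumulus cells and 164 ± 14 CPM in mural cells, and the cystine carrier Slc7a11 was lower in cumulus cells (-0.98 ± 0.07). In all, 6 of 22 transporters were higher in cumulus cells and 10 in mural cells.

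The unfolded protein response, which raises chaperones of the endoplasmic reticulum when secretory load is high, leaned to the cumulus. Of 19 tested members, 15 were called higher in cumulus cells, 0 higher in mural cells and 4 not called, with a median of 0.92, beside 30.5% of all genes called cumulus-higher. The chaperone Hspa5 (BiP) read 2023, 1779.8 and 1906 CPM in cumulus libraries, against 1126, 1018 and 1164 CPM in mural libraries (log2 difference 0.79 ± 0.07, adjusted p = 1.01e-07). Calr, a lectin chaperone, read 1974, 1885 and 1936 CPM in cumulus libraries, against 994, 905 and 989 CPM in mural libraries (log2 difference 1.01 ± 0.07). Creld2, a stress-induced disulfide isomerase, read 179, 172 and 174 CPM in cumulus libraries, against 60.2, 51.6 and 58.2 CPM in mural libraries (log2 difference 1.63 ± 0.06). Xbp1, the factor that IRE1 activates by splicing, and Ern1, which encodes IRE1, differed by 1.47 ± 0.06 and 1.17 ± 0.07. The sensor Atf6 was not called (-0.04 ± 0.06), except below 0 when scaled by library totals (-0.15, adjusted p = 0.0277), and the sensor Eif2ak3 was not called (0.18 ± 0.08), except without mural replicate 3 (0.0155).

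Promoters of these genes are shown because 6 of the 18 listed genes with a RefSeq promoter hold the ER stress element, written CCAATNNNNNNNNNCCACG and searched on both strands. It occurs in 39 of 32851 mouse promoters of the same 300 bases (0.119%). The windows run from 250 bases before to 50 after the start, 5′ to 3′ on the gene's strand, in build GRCm38.p6. Capitals mark the fixed letters of each match, or their complement where the match lies on the other strand. They are chr2:34771840-34772139 (plus strand) for Hspa5, chr10:86705395-86705694 (minus strand) for Hsp90b1, chr8:84846882-84847181 (minus strand) for Calr and chr15:88819396-88819695 (plus strand) for Creld2.
Hspa5: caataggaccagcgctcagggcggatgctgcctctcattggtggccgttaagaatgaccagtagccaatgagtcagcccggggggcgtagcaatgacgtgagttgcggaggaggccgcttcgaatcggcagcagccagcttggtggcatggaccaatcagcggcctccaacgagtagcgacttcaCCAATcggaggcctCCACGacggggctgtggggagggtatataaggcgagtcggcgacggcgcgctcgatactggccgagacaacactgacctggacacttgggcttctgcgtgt
Hsp90b1: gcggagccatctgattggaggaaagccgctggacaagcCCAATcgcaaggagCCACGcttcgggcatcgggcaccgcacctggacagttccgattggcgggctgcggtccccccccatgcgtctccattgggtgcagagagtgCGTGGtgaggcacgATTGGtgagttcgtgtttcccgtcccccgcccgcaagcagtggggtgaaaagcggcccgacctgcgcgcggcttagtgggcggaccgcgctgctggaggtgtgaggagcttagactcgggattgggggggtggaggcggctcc
Calr: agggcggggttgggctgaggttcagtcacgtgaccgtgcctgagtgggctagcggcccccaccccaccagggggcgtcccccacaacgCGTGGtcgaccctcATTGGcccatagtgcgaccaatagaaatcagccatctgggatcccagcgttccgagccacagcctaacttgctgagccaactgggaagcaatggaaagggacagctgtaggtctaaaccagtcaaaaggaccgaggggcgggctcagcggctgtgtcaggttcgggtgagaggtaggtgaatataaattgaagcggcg
Creld2: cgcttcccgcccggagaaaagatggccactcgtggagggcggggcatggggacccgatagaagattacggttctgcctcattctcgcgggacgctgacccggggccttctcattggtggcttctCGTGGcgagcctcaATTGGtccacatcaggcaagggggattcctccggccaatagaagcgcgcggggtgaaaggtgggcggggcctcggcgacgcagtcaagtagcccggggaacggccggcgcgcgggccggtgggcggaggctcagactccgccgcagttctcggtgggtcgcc
Hsp90b1 holds 2 matches and the others 1 each. Pdia6 and Dnajc3 are the remaining listed genes with a match, and all 6 were called higher in cumulus cells, with log2 differences of 0.79, 0.78, 1.01, 1.63, 1.14 and 0.77 in the order named. Among all 23 tested genes with the element, 13 were called higher in cumulus cells and 5 higher in mural cells, with a median log2 difference of 0.25, against -0.0016 over the 12291 tested genes with a promoter. Those shares were 56.5% and 21.7%, beside 30.5% and 31.0% of all genes tested. Without the 6 listed genes, 7 of the remaining 17 were cumulus-higher and 5 mural-higher, with a median of -0.03. A match describes letters in the window and not a bound factor.

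Families of the protein-making and energy machinery, grouped by symbol after the values were seen, were higher in cumulus cells by small amounts. Cytosolic ribosomal proteins were called higher in cumulus cells for 75 of 80 members and lower for 2, with a median of 0.57. Rpl41 averaged 468 ± 23.7 CPM in cumulus cells and 204 ± 10.7 CPM in mural cells, and Rps2 averaged 783 ± 24.9 CPM in cumulus cells and 408 ± 31.7 CPM in mural cells. Nuclear-encoded subunits of the respiratory chain and ATP synthase were cumulus-higher for 66 of 86 members and lower for 2 (median 0.41), with Ndufa4l2, a hypoxia-induced complex I relative, furthest out (3.93 ± 0.16). Transcripts encoded by mitochondrial DNA ran the other way, with 0 of 13 higher in cumulus cells, 12 lower and a median of -0.39. They took 2.68 ± 0.26% of counts in cumulus cells and 3.89 ± 0.32% in mural cells (SD, n = 3 each, exact permutation p = 0.10). Proteasome subunits were cumulus-higher for 31 of 38 members (median 0.37). The COPI coat and ARF genes, which shape Golgi vesicles, were so for 13 of 14 (0.43), and the Sec, signal recognition particle and translocon genes for 26 of 37 (0.41). Sec61b, a subunit of the protein-conducting channel, averaged 114 ± 5.6 CPM in cumulus cells and 46.7 ± 2.48 CPM in mural cells. Short genes leaned to the cumulus side in general, with median log2 differences of 0.08, 0.03, -0.01 and -0.05 over 4 bins of 3661 or 3662 genes from short to long. The part of gene length in these families was not tested.

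Clock genes were mural-higher for 12 of 17 members and cumulus-higher for 1, beside 31.0% and 30.5% of all genes tested. Their median was -0.99. Per2, a repressor of the clock loop, read 1.92, 1.88 and 1.27 CPM in cumulus libraries, against 22.9, 22.3 and 19.8 CPM in mural libraries (log2 difference -3.69 ± 0.16). Its relative Per1 read 105, 90.8 and 95.2 CPM in cumulus libraries, against 179, 197 and 200.3 CPM in mural libraries (log2 difference -0.99 ± 0.07). The output factors Dbp and Tef (-1.95 and -1.06), the nuclear receptor Nr1d1 (-1.79) and the activators Npas2 and Arntl (-2.80 and -0.80) were lower in cumulus cells too. Cry2 was not called (-0.02 ± 0.06). Bhlhe40, a clock repressor that other signals also induce, was the one member higher in cumulus cells (0.46 ± 0.07). The E-box CACGTG, through which this loop acts, lies in 5 of the 15 listed genes with a promoter and in 7.15% of all promoters. The 1355 tested genes with it had a median of 0.02.

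Most DNA replication and mitosis genes were lower in cumulus cells, by small amounts. DNA replication genes were mural-higher for 18 of 22 members and cumulus-higher for 2 (median -0.54). Rrm2, the inducible subunit that makes deoxynucleotides, had the largest gap, at 36.7, 33.3 and 34.6 CPM in cumulus libraries, against 223, 248 and 203 CPM in mural libraries (log2 difference -2.69 ± 0.08, adjusted p = 3.22e-14). Pcna, the sliding clamp that also serves repair, was higher in cumulus cells (0.69 ± 0.09). Mitosis genes were mural-higher for 18 of 22 members with none higher in cumulus cells (median -0.37). The proliferation marker Mki67 read 158, 149.7 and 136 CPM in cumulus libraries, against 193, 172 and 207 CPM in mural libraries (log2 difference -0.37 ± 0.07), and the checkpoint kinase Bub1b read 57.9, 63.1 and 55.9 CPM in cumulus libraries, against 120.2, 110.2 and 118 CPM in mural libraries (log2 difference -0.98 ± 0.06). Over the list of D cyclins and cell-cycle inhibitors, 7 of 17 tested members were cumulus-higher and 5 mural-higher, with a median of 0.11. The cyclin Ccnd2 averaged 55.9 ± 6.08 CPM in cumulus cells and 185 ± 28.3 CPM in mural cells. The growth-arrest genes Gadd45a and Cdkn1b were cumulus-higher, by 2.58 ± 0.12 and 1.0 ± 0.14, while the cell-cycle inhibitor Cdkn1c was mural-higher.

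**Figure D4:**
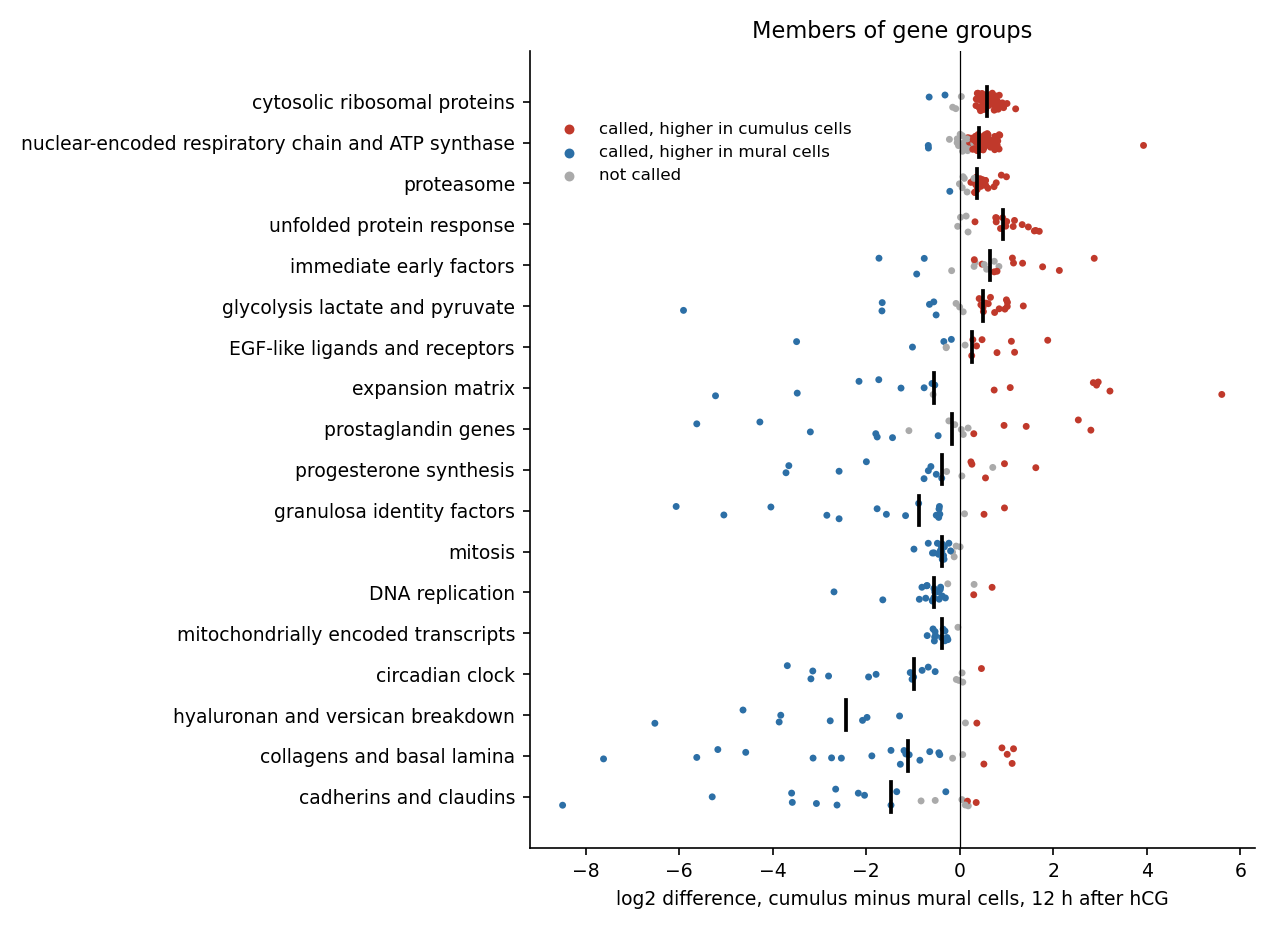
Log2 difference, cumulus minus mural cells, of each tested member of 18 gene groups, coloured by call, with a black bar at the group's median. Unfolded protein response genes lie near or right of 0 with a median of 0.92, mitosis genes near or left of 0 with a median of -0.37, and expansion matrix genes on both sides.

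Collagens and basal lamina genes were mural-higher for 17 of 24 members and cumulus-higher for 5 (median -1.12). The fibrillar chain Col3a1 read 4.84, 3.99 and 4.39 CPM in cumulus libraries, against 189.6, 182 and 279.7 CPM in mural libraries, and the basement-membrane chain Col4a1 read 1336, 1103 and 1382 CPM in cumulus libraries, against 2011, 2264 and 2621 CPM in mural libraries. Their log2 differences were -5.62 ± 0.25 and -0.85 ± 0.11. Fibrillar collagens are defining markers of stroma and moved with the stromal marker sum given above, which includes Col1a1 and Col3a1, and the part of stromal RNA was not tested. Col12a1, Col6a1 and the basal lamina linker Nid1 were higher in cumulus cells, by 1.15, 1.02 and 1.12. The collagen-cutting protease Mmp14 was also cumulus-higher, with 869 ± 52.1 CPM in cumulus cells and 344 ± 13.9 CPM in mural cells.

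Adhesion genes were divided by kind. Integrins and their ligands were cumulus-higher for 8 of 17 members and mural-higher for 5, beside 30.5% and 31.0% of all genes tested. Itgb5, a chain of an osteopontin-binding integrin, read 983, 953 and 981 CPM in cumulus libraries, against 169.8, 153 and 150.1 CPM in mural libraries (log2 difference 2.62 ± 0.07), and the collagen receptor chains Itga1 and Itga2 differed by 1.95 ± 0.12 and 1.23 ± 0.07. Itgb1, the partner chain of many integrins, was not called (-0.03 ± 0.06). Cadherin and claudin genes were mural-higher for 12 of 19 and cumulus-higher for 2 (median -1.47), mostly at low levels, as with the tight-junction protein Cldn1 at 0.541 ± 0.0587 CPM in cumulus cells and 21.3 ± 2.35 CPM in mural cells. The simple-epithelial keratins Krt8 and Krt18 were higher in cumulus cells, with 153 ± 5.55 CPM in cumulus cells and 30.6 ± 4.34 CPM in mural cells for Krt8 and a log2 difference of 1.68 ± 0.09 for Krt18. Keratins Krt7 and Krt19, which are surface epithelium markers, and the smooth muscle genes Acta2 and Myh11 were lower there, with 0.697 ± 0.632 CPM in cumulus cells and 8.23 ± 0.745 CPM in mural cells for Krt19 and 2.66 ± 0.515 CPM in cumulus cells and 55.5 ± 2.52 CPM in mural cells for Acta2.

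Local signalling genes of the Notch, Wnt and hedgehog pathways differed in both directions, beside 30.5% cumulus-higher and 31.0% mural-higher of all genes tested. Of 12 tested Notch genes, 3 were cumulus-higher and 6 mural-higher. Of 23 Wnt genes, 4 were cumulus-higher and 11 mural-higher. Of 9 hedgehog genes, 2 were cumulus-higher and 6 mural-higher. Jag1, a Notch ligand, read 195, 148 and 144 CPM in cumulus libraries, against 19, 17.2 and 18.5 CPM in mural libraries (log2 difference 3.16 ± 0.12), while the Notch ligand Dll4 was low in both, at 0.0844 ± 0.0481 CPM in cumulus cells and 1.11 ± 0.506 CPM in mural cells. Wnt11 and Wnt7b were cumulus-higher (4.55 ± 0.18 and 3.55 ± 0.24), and the ligand Wnt5a and the secreted Wnt inhibitors Frzb and Sfrp4 were mural-higher (-3.75 ± 0.35, -3.71 ± 0.39 and -1.74 ± 0.08). Axin2, a target gene of the canonical Wnt pathway, was lower in cumulus cells (-1.48 ± 0.10). The hedgehog ligand Ihh averaged 1.6 ± 0.131 CPM in cumulus cells and 37 ± 12.9 CPM in mural cells, and the inhibitor Hhip averaged 0.249 ± 0.221 CPM in cumulus cells and 16.8 ± 2.86 CPM in mural cells. The cumulus-higher hedgehog genes were the pathway targets Gli1 and Ptch1 (0.88 ± 0.23 and 0.33 ± 0.07), whose calls were lost in the fit of all 18 libraries (adjusted p = 0.0507 and 0.185). Retinoic acid genes split by enzyme, since Aldh1a3 was cumulus-higher while its relatives Aldh1a1 and Aldh1a2 were mural-higher (-3.89 ± 0.35 and -3.74 ± 0.30). The retinoid-binding protein Crabp2 and the receptor Rarg were cumulus-higher (1.78 ± 0.16 and 1.0 ± 0.07), and Cyp26b1, which degrades retinoic acid, was mural-higher (-5.15 ± 0.31).

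More cytokine and chemokine genes were called mural-higher than cumulus-higher. Of 22 tested cytokine genes, 6 were cumulus-higher and 10 mural-higher. Of 13 chemokine genes, 2 were cumulus-higher and 8 mural-higher. Among all genes tested, 30.5% were cumulus-higher and 31.0% mural-higher. On the cumulus side, Il33, an alarm cytokine held in nuclei, read 89.8, 58.9 and 71.5 CPM in cumulus libraries, against 6.11, 7.2 and 5.66 CPM in mural libraries (log2 difference 3.54 ± 0.17). Cxcl14, a secreted chemokine, read 149.7, 153 and 158 CPM in cumulus libraries, against 14.4, 18.9 and 18.6 CPM in mural libraries (log2 difference 3.15 ± 0.09), and Clcf1, of the IL-6 family, averaged 171 ± 8.06 CPM in cumulus cells and 56 ± 4.74 CPM in mural cells. The receptors Lifr and Il6st of that family were mural-higher (-2.28 ± 0.07 and -0.94 ± 0.06), as were the growth factor Csf1 (-2.94 ± 0.23) and complement C3 (-4.05 ± 0.33). Nts, the peptide neurotensin, read 232, 185 and 211 CPM in cumulus libraries, against 22, 26.2 and 18.5 CPM in mural libraries (log2 difference 3.24 ± 0.14). All 6 tested Gimap genes, which encode small GTPases of lymphocytes, were mural-higher, among them Gimap5 at 1.0, 0.704 and 0.899 CPM in cumulus libraries, against 28.7, 34.9 and 31.7 CPM in mural libraries. The general leukocyte marker Ptprc averaged 0.316 ± 0.161 CPM in cumulus cells and 2.26 ± 0.307 CPM in mural cells.

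The gap between the cell types at 12 h was often not the gap before hCG. In a fit of all 18 libraries, 9379 of 19941 genes (47.0%) were called between the cell types at 0 h. The difference of the 2 gaps was called for 8023 genes (40.2%), 3955 shifted toward cumulus cells (19.8%) and 4068 toward mural cells (20.4%). Of the 971 genes at least 2-fold higher in cumulus cells at 12 h, 219 were already cumulus-higher at 0 h, 263 were mural-higher and 488 were not called. Of the 2889 genes at least 2-fold higher in mural cells at 12 h, 1057 were already mural-higher at 0 h, 665 were cumulus-higher and 1167 were not called. The 12 h sets came from the fit of 6 libraries and the 0 h calls from that of all 18. At 12 h the latter called 7666 genes, against 10490 in the former. Among genes not called at 0 h, the difference of the gaps was called for 287 of the 488 and 698 of the 1167. The gap at 12 h and the difference of the gaps share the 12 h libraries, so these counts are not independent. The cumulus libraries of 0 h held oocyte marker sums of 409.9, 1995 and 2059 CPM and mitochondrial shares of 12.8, 8.49 and 8.5%, against 157, 262 and 649.6 CPM and 4.88, 5.02 and 6.08% in the mural libraries of 0 h, and their part in the gap differences was not tested.

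Lhcgr, Cd34 and Edn2 kept a mural excess at both times. For Lhcgr the gap was -6.29 ± 0.50 at 0 h, and the difference of the gaps was not called (-0.81 ± 0.59, adjusted p = 0.287). For Cyp11a1 the gap narrowed by 2.40 ± 0.55 (adjusted p = 0.00211), and for the collagen Col4a1 by 5.23 ± 0.30 (adjusted p = 1.9e-09), with 0 h levels of 4.09 ± 0.389 CPM in cumulus cells and 278 ± 82.5 CPM in mural cells. Aldh1a3 changed sides. It averaged 0.257 ± 0.124 CPM in cumulus cells and 2.23 ± 0.275 CPM in mural cells at 0 h, a gap of -3.11 ± 0.35, and the difference of the gaps was 8.79 ± 0.44 (adjusted p = 4.57e-10). Grem1 did the same, with 166 ± 36.6 CPM in cumulus cells and 535 ± 54.8 CPM in mural cells at 0 h and a difference of 6.12 ± 0.31 (adjusted p = 5.01e-10). For Ptx3 and Spp1 no gap was called at 0 h (-0.67 ± 0.63 and 0.03 ± 0.27), and the differences of the gaps were 6.27 ± 0.73 and 1.86 ± 0.34. Krt79 was cumulus-higher at both times (3.07 ± 0.24 at 0 h).

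Slc38a3 was not called between the cell types at 0 h, at 119 ± 28.2 CPM in cumulus cells and 146 ± 13.8 CPM in mural cells, and its gap shifted toward mural cells by -5.79 ± 0.46 (adjusted p = 5.7e-08). Amh and Foxl2 behaved likewise, with gaps of 0.02 ± 0.40 and 0.23 ± 0.16 at 0 h and shifts of -4.05 ± 0.60 and -1.39 ± 0.23. Epas1 was cumulus-higher at 0 h (0.99 ± 0.22) and mural-higher at 12 h. Ribosomal protein genes had gaps that shifted toward mural cells for 71 of 80 members although 75 were cumulus-higher at 12 h. Unfolded protein response genes shifted toward cumulus cells for 14 of 19 members, mitosis genes toward mural cells for 19 of 22, and expansion matrix genes toward cumulus cells for 11 of 16. The background for these counts of shifts is 19.8% toward cumulus cells and 20.4% toward mural cells over all 19941 genes of that fit.

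**Figure D5:**
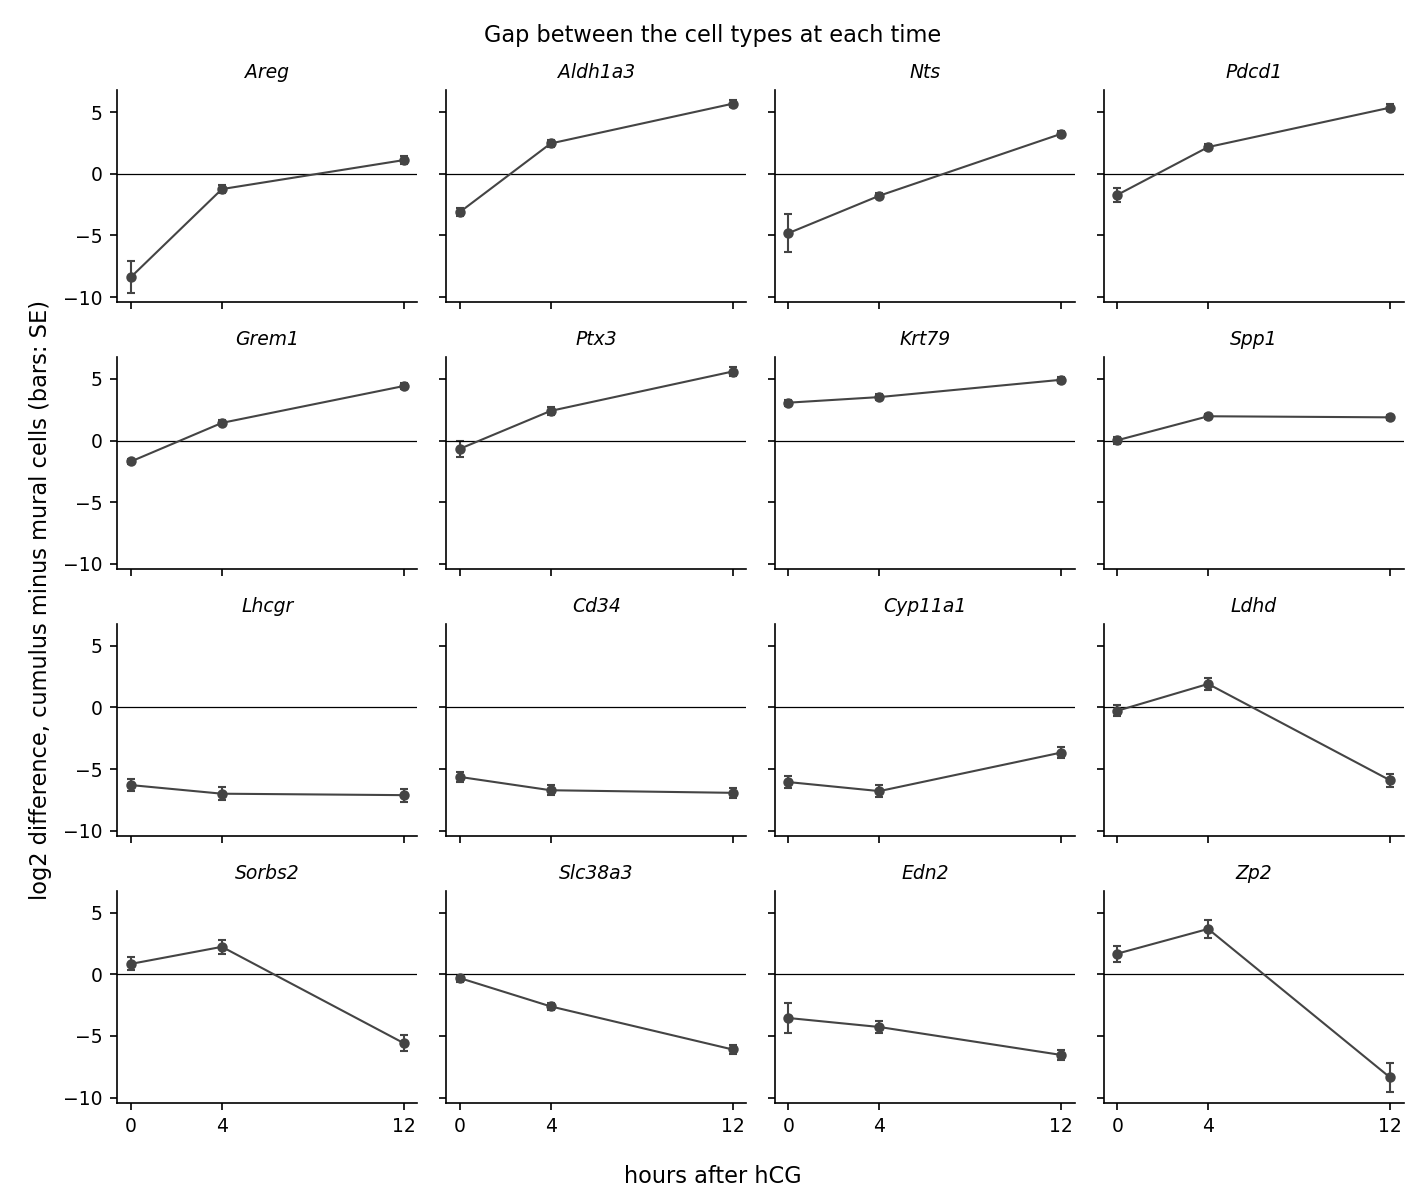
Log2 difference, cumulus minus mural cells, at 0, 4 and 12 h after hCG for 16 genes, from a fit of all 18 libraries, with bars of 1 SE; Areg and Nts were listed at 0 in cumulus cells at 0 h, so those points are fitted and not measured folds. Lhcgr and Cd34 stay far below 0 throughout, Aldh1a3, Pdcd1 and Grem1 pass from below to above 0, and Slc38a3 and Ldhd start near 0 and end near -6.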

How the data were processed

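Polyadenylated RNA of 18 libraries was sequenced. The authors deposited raw counts per gene in 1 table of 41325 entries, made with the CLC Genomics Workbench at default settings, as given in the series' design text; the submitters' processing notes name GRCm38. The sources used here name no version, annotation, read filter or use of strand, so reads of overlapping or antisense genes cannot be told apart. Columns were matched to samples by title, with 0 columns unused.

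Counts of the 6 libraries of 12 h were fitted with edgeR 4.0.16 and limma 3.58.1 in R 4.3.3 by glmQLFit with robust spread and glmQLFTest, without a block, on 17064 genes that passed filterByExpr with a minimum count of 10, which hold 99.93% of the reads. TMM factors came from all 18 libraries. The 6 libraries were fitted alone because spread differed between groups. The gaps at 0 h and 12 h and their difference came from a fit of all 18 libraries on 19941 genes. Called means a Benjamini-Hochberg adjusted p under 0.05 over all genes tested. The procedure was tested on simulated data. CPM use the same factors, and 3 counts equal 0.0754 to 0.0885 CPM in these libraries. Intervals and floors cover counting error only.

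Members, the 56 gene lists (904 of 910 genes in the table) and the tests were chosen with earlier results of these data known, and the 8 families by symbol after seeing the values. Named genes were 30 key genes, the 10 largest differences in each direction at 20 CPM or more without overlap, the 5 largest differences in mean CPM, up to 2 called members of each list in each direction, and the 5 largest gap differences in each direction; other list members were named to show counts, after their values were seen. Not all genes that meet the rule are reported here. Deviations of same-numbered cumulus and mural libraries correlated at 0.03, 0.014 and 0.033, under 0.1, so the numbers were not taken as pairs. Alternatives were DESeq2 1.42.0, library totals, TMM over the 6 libraries, no filter, a minimum count of 50, all 18 libraries, a replicate block, no robust spread, each library left out, and glmTreat, which was added after seeing the data. Positions come from GENCODE M21 and promoters from RefSeq (GRCm38.p6).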

Additional observations from a re-analysis of the deposited data

Results flagged for a closer look

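The difference between cumulus and mural cells changed between 0 and 12 h for 8023 of 19941 genes in the fit of all 18 libraries, and the largest of these changes at 20 CPM or more are given here because the test of the difference itself passed. Values are the log2 gap at 12 h minus that at 0 h, each gap being cumulus minus mural. Areg, the EGF-like ligand, shifted toward cumulus cells by 9.48 ± 1.27 (adjusted p = 3.16e-05), and was listed at 0 CPM in all cumulus libraries of 0 h, where mural cells averaged 1.07 ± 0.33 CPM, so the fitted size is no measured fold. Aldh1a3, the retinoic acid enzyme, shifted by 8.79 ± 0.44 and the keratin Krt23 by 8.68 ± 1.97. The neurotensin gene Nts shifted by 8.05 ± 1.39, and Wisp1, a secreted matrix-associated protein, by 7.94 ± 0.57. Krt23 and Nts were also listed at 0 CPM in all cumulus libraries of 0 h, with means of 0.0314 ± 0.0274 and 0.091 ± 0.0551 CPM in mural cells, and the same limit holds for them.

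Toward mural cells, the largest shifts were those of oocyte genes. They were -10 for the egg-coat gene Zp2, -9.93 for Padi6, -8.69 for Nlrp14, -8.19 for Bmp15, an oocyte-secreted growth factor, and -7.67 for Nlrp5. Zp2 averaged 124 ± 81.4 CPM in cumulus cells and 38.9 ± 28.5 CPM in mural cells at 0 h and 0.0785 ± 0.0679 CPM in cumulus cells and 25.9 ± 8.97 CPM in mural cells at 12 h. The oocyte marker sums of the cumulus libraries were 409.9, 1995 and 2059 CPM at 0 h and 8.68, 10.9 and 6.93 CPM at 12 h. Zp2, Padi6, Bmp15 and Nlrp5 are members of that sum, so their agreement with it was given in advance. Nlrp14 is not a member. The part of oocyte RNA in other gap differences was not tested.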

How the results depend on the processing

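With each of the 6 libraries of 12 h left out in turn, the number of called genes ranged from 9380 to 10384, of cumulus-higher genes from 4666 to 5015, of mural-higher genes from 4714 to 5369, and of called genes at least 2-fold apart from 3627 to 4133. With each of the 12 libraries of 0 and 12 h left out, called gap differences ranged from 6949 to 8183 and calls at 0 h from 7373 to 9204. In the fit of all 18 libraries at 12 h, 7666 genes were called and 3451 were cumulus-higher; spread was unequal between groups there. A glmTreat test against a 2-fold change, added after seeing the data, called 2539 genes. DESeq2 called 10133 genes, library totals 10261, no filter 11058 and a minimum count of 50 9239 (54.4% cumulus-higher, against 49.5%). The replicate number as a block gave 10456 calls (5184 cumulus-higher, 5272 mural-higher), 8204 gap differences and 9621 calls at 0 h, and among the named genes it ended only the globin calls given in the report and brought Gja1 past the threshold (adjusted p = 0.0421).

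Of 4520 recomputed values of 324 genes, 4444 kept their direction and side of the threshold, 49 lost the call, 20 gained one and 7 changed sign, and 284 of 308 called genes kept both throughout. The sign changes were of genes not called. Inha was -0.0491 and Runx1 -0.0013 under library totals. With single libraries left out, Inha ranged from -0.0661 to 0.152, Hyal1 from -0.12 to 0.25, Ptges from -0.22 to 0.0022 and Itgb1 from -0.0559 to 0.0009. Calls lost in the fit of all 18 libraries were those of Erbb2 (adjusted p = 0.0548), Id1 (0.0699), Bmpr2 (0.244), Gata6 (0.0768), Pecam1 (0.12), Arntl (0.107), Plat (0.144), mt-Co1 (0.0582), Nrg1 (0.134), Gli1 (0.0507), Ptch1 (0.185), Ccr7 (0.168), Gjc1 (0.0748), Cdh5 (0.112), Tjp1 (0.183), Cd68 (0.316), Camp (0.197) and Col18a1 (0.0551); the cause was not tested. The median of the inhibin, activin and AMH list was -0.06 under library totals and -0.03 without mural replicate 2, against 0.05, and that of the glutathione list was -0.05 under library totals, against 0.06. For genes with almost no counts in cumulus cells the fitted value depends on single libraries, as for Cyp17a1, at -5.93 in all libraries and -10.43 without cumulus replicate 3.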

Other observations

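Guidance molecules, which steer migrating cells and axons, were split within families. Of 35 tested genes, 11 were called higher in cumulus cells and 19 higher in mural cells, with a median log2 difference of -0.58. Those shares were 31.4% and 54.3%, beside 30.5% and 31.0% of all genes tested, so the cumulus-higher share was near that of all genes. Of the secreted semaphorins, Sema3a, Sema3c and Sema3e were cumulus-higher and Sema3f was mural-higher. Sema3e read 101, 92.9 and 90.5 CPM in cumulus libraries, against 24.9, 32.5 and 27.3 CPM in mural libraries (log2 difference 1.75 ± 0.09). The semaphorin receptors Nrp1 and Nrp2 were mural-higher, by -1.60 ± 0.09 and -1.74 ± 0.18. Another semaphorin receptor, Plxnb1, was too, at 59.5, 57.9 and 62.5 CPM in cumulus libraries, against 247, 280.1 and 281 CPM in mural libraries. The repulsion receptor Robo2 averaged 118 ± 10.3 CPM in cumulus cells and 49.8 ± 8.24 CPM in mural cells, and its ligand Slit3 averaged 11.6 ± 1.97 CPM in cumulus cells and 49.2 ± 10.1 CPM in mural cells. Among ephrins, Efnb2 was mural-higher (-1.81 ± 0.08) and Efna2 cumulus-higher (0.81 ± 0.13).

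Of 20 tested genes that limit G protein and cyclic nucleotide signals, 7 were higher in cumulus cells (35%) and 8 in mural cells (40%), shares near the 30.5% and 31.0% of all genes tested. Rgs2, which shortens G protein signals, read 1246, 1223 and 1097 CPM in cumulus libraries, against 470.1, 479 and 380.1 CPM in mural libraries (log2 difference 1.42 ± 0.09). The phosphodiesterases Pde7b and Pde3b were low in cumulus cells, with log2 differences of -3.47 ± 0.15 and -2.44 ± 0.21, and Pde8a was cumulus-higher (0.55 ± 0.07). Vesicle release genes were mural-higher for 8 of 17 members, among them the calcium sensor Syt7 (-1.76 ± 0.21), and cumulus-higher for 4, among them Vamp3 (0.72 ± 0.06). Those shares were 47.1% and 23.5%, beside 31.0% and 30.5% of all genes tested. In the plasminogen system the activators Plau and Plat were mural-higher (-0.98 ± 0.07 and -1.12 ± 0.08), and the receptor Plaur was cumulus-higher (1.28 ± 0.14). Plat was not called in the fit of all 18 libraries (adjusted p = 0.144).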
